A study of Mus musculus with 9 samples.

Results

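Cilia and axonemal genes were examined in lumbar dorsal root ganglia (DRG), which hold the cell bodies of the sensory neurons of the hindlimb and lower trunk, after deletion of Prdm12. The group was chosen by gene symbol. It took every protein-coding mouse gene whose symbol starts with Cfap, every gene whose symbol is Dnah or Ift followed by a number, and Dcdc2a. This gave 61 genes out of 55536 in the count tables, of which 22028 were protein-coding. Of the 61 genes, 46 were placed in the motile-axoneme class (31 Cfap and 15 Dnah), 14 were Ift genes of intraflagellar transport, and Dcdc2a stood apart. The classes were assigned by symbol alone, so a Cfap member need not be part of a motile axoneme.

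Messenger RNA was sequenced in 9 libraries from adult C57Bl6 mice. The icKO group held 5 libraries with the genotype label Prdm12 inducible conditional knock-out, and Prdm12 encodes a zinc finger regulator known for its role in pain-sensing neurons. The control group held 4 libraries labelled wild type. The design text places the comparison 1 month after tamoxifen, the drug that starts the inducible deletion, and does not say separately that the control mice received it. The labels do not name the Cre driver, the cells it acts in or the deleted exons, and they leave unstated whether each library is its own animal. The p-values below rest on the differences among libraries of a group, part of which may be technical.

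A cilium is a hair-like projection built on a cylinder of microtubule doublets, the axoneme. Motile cilia and sperm flagella carry dynein arms, radial spokes and a central pair of microtubules, to which the Dnah heavy chains and many Cfap (cilia and flagella associated) proteins belong. Primary cilia, which neurons and glia carry, do not beat and lack dynein arms, but they are built and maintained by the same intraflagellar transport (IFT) trains, whose subunits are the Ift proteins. Dcdc2a encodes a doublecortin-domain protein that binds microtubules and has been found on the axoneme of primary cilia.

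The promoter windows of the members that passed the test are shown because their start regions differed in a motif of cilia genes. RFX transcription factors bind an X-box, searched here as a core of GT, any 2 bases, CC, any 3 bases, G, any base and AAC, and FOXJ1 and other forkhead factors bind the sequence TGTTTAC. Each window ran from 250 bases before to 50 bases after a RefSeq start on build GRCm38.p6, and both strands were searched. The windows lay at chr4:34730157-34730456 on the minus strand for Cfap206 and at chr13:25055754-25056053 on the plus strand for Dcdc2a, and capitals mark a match to either motif.
Cfap206: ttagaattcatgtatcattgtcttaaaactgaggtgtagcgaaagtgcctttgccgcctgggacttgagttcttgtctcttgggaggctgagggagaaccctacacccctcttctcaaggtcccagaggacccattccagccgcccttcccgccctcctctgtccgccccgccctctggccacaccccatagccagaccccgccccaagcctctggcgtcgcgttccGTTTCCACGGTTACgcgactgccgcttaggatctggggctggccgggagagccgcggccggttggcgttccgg
Dcdc2a: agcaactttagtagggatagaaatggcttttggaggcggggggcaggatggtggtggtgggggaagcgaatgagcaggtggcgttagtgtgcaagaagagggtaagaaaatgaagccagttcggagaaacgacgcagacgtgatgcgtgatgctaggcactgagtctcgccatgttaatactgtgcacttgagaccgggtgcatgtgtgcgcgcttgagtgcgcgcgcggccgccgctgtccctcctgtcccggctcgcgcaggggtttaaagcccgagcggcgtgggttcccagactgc
The Cfap206 window held an X-box core 23 to 10 bases before the start (chr4:34730216-34730229), read on the strand opposite to the gene, and no forkhead match. The Dcdc2a window held neither motif.

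A window was found for 50 of the 61 members, with 53 windows in all. The X-box core was present in 8 of the 53 windows (15.1%), against 714 of 32851 windows over all genes (2.17%). By class, it was present in 6 of 41 windows of motile-axoneme members (14.6%) and in 2 of 11 windows of transport members (18.2%). The forkhead motif was present in 3 of the 53 windows (5.66%), against 1199 of the 32851 windows (3.65%), and these belonged to Cfap20, Cfap43 and Dnah17. The matched X-box sites are set side by side below to show that the fixed letters, in capitals, occur with different inner bases.
Cfap206: GTaaCCgtgGaAAC
Cfap44: GTtgCCataGcAAC
Cfap45: GTtaCCataGcAAC
Cfap61: GTttCCttaGcAAC
Cfap298: GTtgCCcggGcAAC
Dnah17: GTcaCCagcGcAAC
Ift22, distal site: GTagCCcagGaAAC
Ift22, proximal site: GTcgCCgtgGaAAC
Ift57: GTcaCCacgGcAAC
Of these 8 members, Cfap206 passed the test between icKO and control libraries and Cfap45 was too low to be tested. The other 6 had log2 fold changes between -0.19 and 0.14, and none of them passed. A match is a description of these letters and not evidence of binding.

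The targeted transcript was checked before the members. Prdm12 was measured at 22.3 to 26.2 CPM (counts scaled to a common library total) in icKO libraries, against 116 to 163 CPM in control libraries, a log2 fold change of -2.48 (SE 0.09, edgeR adjusted p = 2.51e-08). The libraries held 19607740 to 29481589 counts each, and the floor of 3 counts was equal to 0.101 to 0.155 CPM. Correlations of log2 CPM over genes were 0.987 to 0.993 between icKO libraries and 0.986 to 0.989 between control libraries. The spinal cord marker sum was 21.9 to 28.0 CPM in icKO libraries and 20.7 to 86.9 CPM in control libraries, where control 4 gave the highest value and the other control libraries at most 23.5 CPM. Skeletal muscle markers summed to 30.4 CPM in icKO 1 and to 47.9 CPM in control 2, the highest values of their groups. Y-linked genes were high in icKO 1, icKO 2, control 1 and control 3 and low in the other 5 libraries, and both groups held libraries of each kind.

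Across the group, 2 genes were called higher in the icKO libraries, none was called lower, and 48 of the 50 tested members did not pass the test. The genes that rose were Cfap206, a radial spoke protein, and Dcdc2a, each at about 2-fold. Of the remaining 11 members, 8 Cfap and 3 Dnah genes, none passed the filter on low counts. The 2 calls were 4% of the members tested, against 0.852% of the 17258 genes tested overall. By class, 2.86% of the tested motile-axoneme members and 0% of the transport members were called. Dcdc2a entered the group by name, and members were chosen with earlier results of these data known. The share called and the share without overlap given below therefore cannot be read as enrichment. Leaving out 1 library removed the Dcdc2a call in 8 of 9 fits, so that 1 to 2 members were called higher, while the Cfap206 call was kept in all 9. By direction, 0.475% of all tested genes were called higher and 0.377% were called lower (edgeR quasi-likelihood test, Benjamini-Hochberg adjusted p under 0.05 over all genes tested). Without the adjustment, 3 members had a p under 0.05 with a higher level and 2 with a lower level, 5 of 50, where 11.1% of all tested genes had such a p, 4.85% higher and 6.26% lower. DESeq2, run as an alternative, called the same 2 members higher and Ift122 lower, and called 2.6% of all genes it tested. Over the 50 members the log2 fold change had a median of 0.01, with 27 positive and 23 negative values, beside -0.00 over all genes tested. Libraries of the groups did not overlap for 4 of the 50 members (8%), namely Cfap206, Dcdc2a, Dnah6 and Ift57, against 4.5% of all tested genes.

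**Figure D1:**
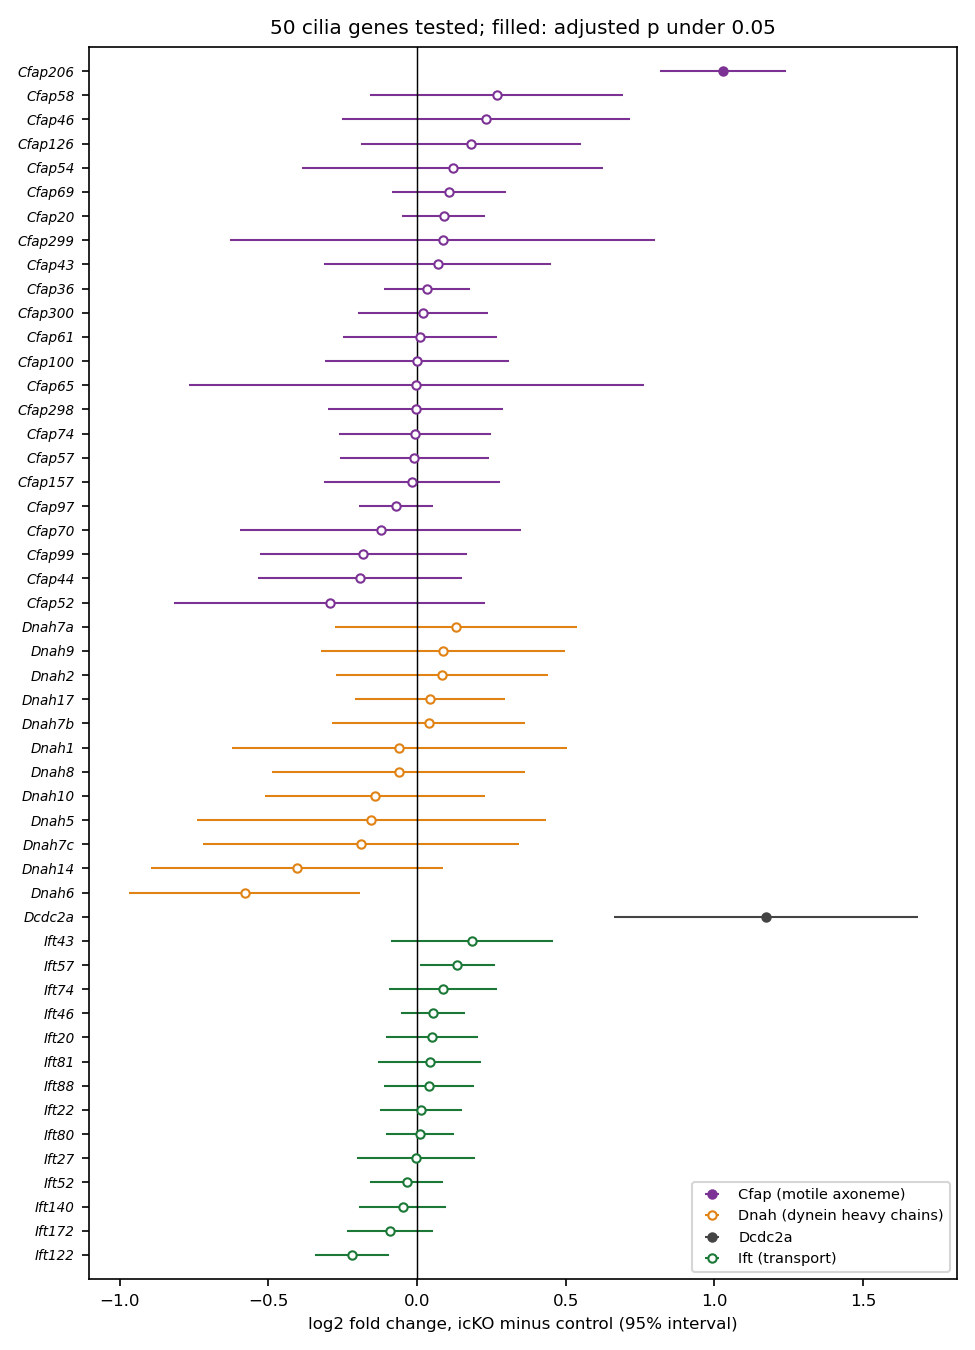
Log2 fold change, icKO minus control, of the 50 tested cilia genes (x axis) with the 95% interval from the edgeR fit, 1 gene per row, ordered within each family and coloured by family; filled points passed the adjusted threshold of 0.05. Cfap206 at 1.03 and Dcdc2a at 1.17 stand to the right, Dnah6 has the lowest value at -0.58, and the 14 Ift genes lie between -0.22 and 0.18.

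Cfap206 was the motile-axoneme gene that rose. Its protein anchors a radial spoke to the doublet microtubules in the ciliate Tetrahymena, and the gene, ENSMUSG00000028294, lies at chr4:34688559-34730206 on the minus strand of GRCm38 with no other annotated gene inside it. Cfap206 was measured at 25.4, 23.5, 28.2, 30.9 and 27.8 CPM in icKO 1 to 5, against 11.1, 14.5, 13.9 and 13.7 CPM in control 1 to 4. The lowest icKO library was above the highest control library. The counts behind these values were 607 to 811 in icKO libraries and 266 to 382 in control libraries. The means were 27.2 ± 2.83 CPM in icKO (SD, n = 5) and 13.3 ± 1.497 CPM in control (SD, n = 4), a log2 fold change of 1.03 (SE 0.10, 95% interval 0.82 to 1.24, edgeR adjusted p = 0.000385). A two-sided exact permutation test over all 126 ways to assign the libraries gave p = 0.00794, the smallest value that this design can give. It was run only for members already past the threshold on the same counts. Here and for Dcdc2a it is therefore not separate support for the call.

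The Cfap206 difference was positive in every subset of libraries examined. With each library left out in turn, the log2 fold change was 0.95 to 1.08 and the call was kept in all 9 fits (edgeR adjusted p = 0.000334 to 0.00191). Among libraries rich in Y-linked counts, 2 icKO and 2 control, the log2 fold change was 0.97 and the call was not kept (edgeR adjusted p = 0.171); within those with low Y-linked counts, 3 icKO and 2 control, it was 1.04 (edgeR adjusted p = 0.00571). The fold was 1.95 and 2.05 in these classes, and the test of the difference between them gave -0.07 on the log2 scale (SE 0.17, edgeR adjusted p = 1.00). Without icKO 1, control 2 and control 4, the libraries with the high muscle or spinal cord markers, the log2 fold change was 1.14 (edgeR adjusted p = 0.0183). The neighbouring gene Slc35a1, a sugar nucleotide transporter, averaged 21.5 ± 0.848 CPM in icKO and 19.7 ± 1.17 CPM in control libraries (SD, n = 5 and 4), a log2 fold change of 0.12 that did not pass (edgeR adjusted p = 0.524).

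The summed level of the 46 genes classed by symbol as motile-axoneme genes was 324 to 364 CPM in icKO libraries and 307 to 345 CPM in control libraries. Cfap36 alone held 104 CPM of this sum on average in icKO libraries and 102 CPM in control libraries. Without Cfap206, the sum was 297 to 333 CPM in icKO libraries and 293 to 331 CPM in control libraries, so the ranges overlapped in each case. The motile class therefore held a change in Cfap206 and no other call. In bulk tissue, a change in the number of cells that express a gene and a change in RNA per cell cannot be told apart, here and for every gene below.

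**Figure D2:**
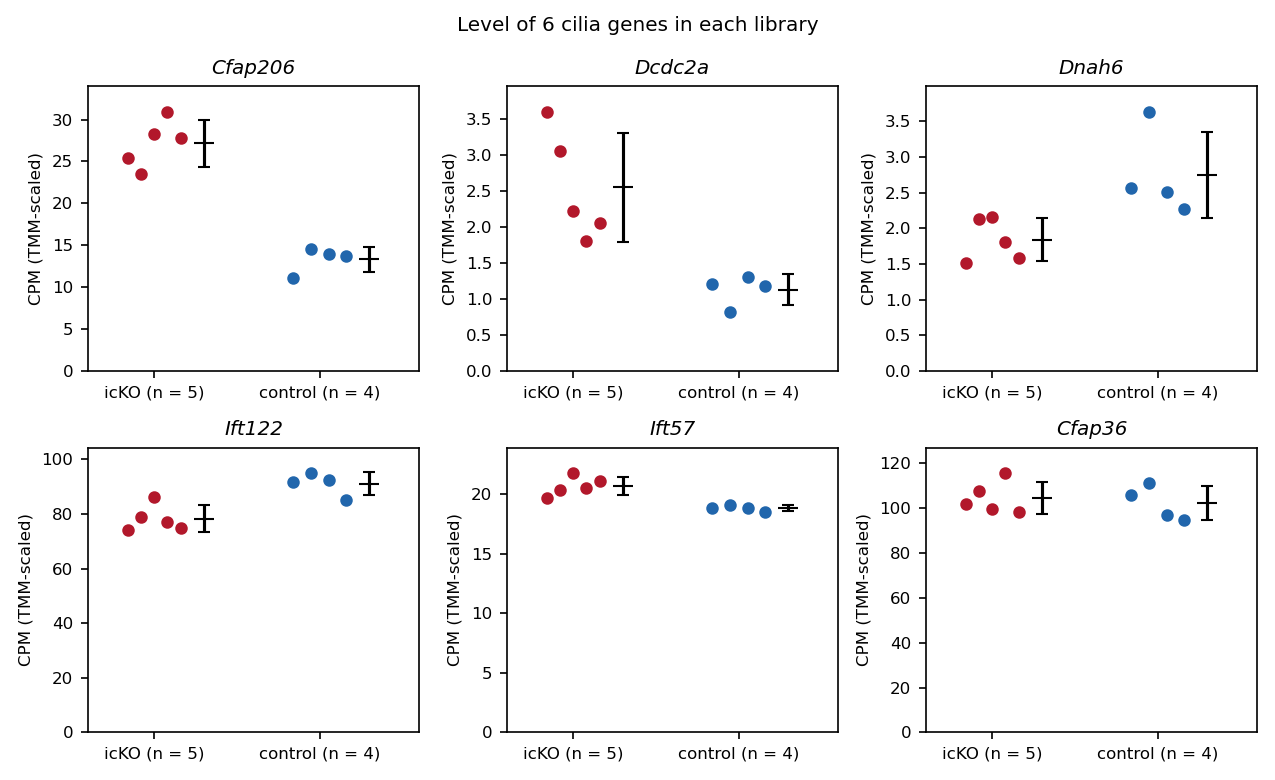
Level in CPM (y axis, linear, from 0) of 6 cilia genes in each library, with the 5 icKO libraries at the left and the 4 control libraries at the right of each panel, each library 1 point in replicate order, and the bar showing mean ± SD. The groups do not overlap for Cfap206, Dcdc2a, Dnah6 and Ift57, they overlap by 1 library in Ift122, and they lie on top of each other in Cfap36.

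The other 22 tested Cfap genes gave no call and were split evenly, 11 positive and 11 negative. Their intervals all lay within a 2-fold change in either direction, and those of 12 lay within 1.41-fold. Cfap36, which encodes a partner of the small GTPase Arl3, averaged 104 ± 7.13 CPM in icKO and 102 ± 7.61 CPM in control libraries (SD, n = 5 and 4). Its log2 fold change was 0.03 with a 95% interval of -0.11 to 0.18. Cfap20, a component of the inner junction within the doublet microtubule in Chlamydomonas, had 37.8 to 42.6 CPM in icKO libraries and 34.5 to 42.1 CPM in control libraries (log2 fold change 0.09, edgeR adjusted p = 0.689). Cfap300, required for dynein arm assembly in humans, had 13.1 to 16.3 CPM in icKO libraries and 12.8 to 17.5 CPM in control libraries. Its log2 fold change of 0.02 changed sign under several alternatives. Cfap97 had 46.6 to 54.2 CPM in icKO libraries and 50.3 to 53.9 CPM in control libraries (log2 fold change -0.07). Among uncalled Cfap genes of at least 1 CPM the highest fold change was in Cfap58, a gene of the sperm flagellum, with a mean of 1.66 ± 0.289 CPM in icKO libraries, against 1.38 ± 0.297 CPM in control libraries (SD, n = 5 and 4; log2 fold change 0.27, SE 0.20, edgeR adjusted p = 0.697).

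The Dnah genes encode the heavy chains of the axonemal dynein arms, the motors that bend motile cilia. None of the 12 tested Dnah genes passed, with 5 positive and 7 negative fold changes and a median of -0.06 on the log2 scale. Their summed level over all 15 genes was 20.2 to 25.1 CPM in icKO libraries and 22.0 to 24.9 CPM in control libraries. Dnah6, an inner arm heavy chain, was measured at 1.51, 2.13, 2.16, 1.81 and 1.58 CPM in icKO 1 to 5, against 2.57, 3.63, 2.52 and 2.27 CPM in control 1 to 4. All icKO libraries were below all control libraries. These values rest on 40 to 62 counts in icKO libraries and 44 to 89 counts in control libraries. The means were 1.84 ± 0.301 CPM in icKO and 2.75 ± 0.606 CPM in control libraries (SD, n = 5 and 4), a log2 fold change of -0.58 (SE 0.18, 95% interval -0.97 to -0.19). The edgeR p was 0.00687 before adjustment and 0.202 after it, so Dnah6 did not pass, and over the alternatives its adjusted p ranged from 0.145 to 0.790.

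Dnah14 had the next lowest value, with 0.904 ± 0.207 CPM in icKO and 1.19 ± 0.270 CPM in control libraries (SD, n = 5 and 4; log2 fold change -0.40, SE 0.23, edgeR adjusted p = 0.570). The intervals of all 12 Dnah genes lay within a 2-fold change, but those of only 5 lay within 1.41-fold. Dnah7a, Dnah7b and Dnah7c are copies of a gene by their symbols, and their sequences were not compared here. How reads with several positions were treated is not given, so the counts of each are uncertain.

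The 14 Ift genes could all be tested, and none of them passed the test. They encode subunits of the trains that carry cargo along the axoneme, with the IFT-B complex used for movement toward the tip and the IFT-A complex for the return. Their fold changes were the narrowest of the group, from -0.22 to 0.18 on the log2 scale with a median of 0.03, and 9 were positive and 5 negative. All 14 intervals lay within a 1.41-fold change in either direction. Their summed level was 594 to 632 CPM in icKO libraries and 602 to 647 CPM in control libraries, which overlapped.

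Ift122, an IFT-A subunit, had the smallest p of the class. It was measured at 74.2, 78.9, 86.3, 77.0 and 75.0 CPM in icKO 1 to 5, against 91.9, 94.9, 92.5 and 85.0 CPM in control 1 to 4. The highest icKO library, icKO 3, lay above the lowest control library, control 4. The means were 78.3 ± 4.85 CPM in icKO and 91.1 ± 4.23 CPM in control libraries (SD, n = 5 and 4), a log2 fold change of -0.22 (SE 0.06, edgeR adjusted p = 0.117). DESeq2 called it lower (adjusted p = 0.0244), the only alternative of 20 to do so, with adjusted p values from 0.0244 to 1.00 over them.

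Ift57, an IFT-B subunit, was measured at 19.7, 20.4, 21.8, 20.6 and 21.1 CPM in icKO 1 to 5, against 18.8, 19.2, 18.8 and 18.6 CPM in control 1 to 4. Its libraries did not overlap between groups, but the difference was small, with a log2 fold change of 0.14 (SE 0.06, edgeR adjusted p = 0.406). Ift43, an IFT-A subunit, had 10.3 ± 1.14 CPM in icKO and 9.04 ± 1.65 CPM in control libraries (SD, n = 5 and 4; log2 fold change 0.18, SE 0.13, edgeR adjusted p = 0.667). Ift172, the largest IFT-B subunit, had 87.8 ± 7.72 CPM in icKO and 93.5 ± 4.51 CPM in control libraries (SD, n = 5 and 4; log2 fold change -0.09, SE 0.07, edgeR adjusted p = 0.699). In these genes the difference between the groups was smaller than 1.41-fold at either end of its interval.

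Dcdc2a also rose in the icKO libraries, at a level far below that of Cfap206 per kilobase of exon. The gene, ENSMUSG00000035910, lies at chr13:25056004-25210706 on the plus strand of GRCm38, and an annotated pseudogene inside it had no counts in any library. Dcdc2a was measured at 3.60, 3.06, 2.23, 1.81 and 2.05 CPM in icKO 1 to 5, against 1.21, 0.817, 1.31 and 1.19 CPM in control 1 to 4. The groups did not overlap, and the icKO libraries spread more widely than the control libraries. Its counts were 44 to 107 in icKO libraries and 20 to 36 in control libraries. The means were 2.55 ± 0.752 CPM in icKO and 1.13 ± 0.217 CPM in control libraries (SD, n = 5 and 4), a log2 fold change of 1.17 (SE 0.24, 95% interval 0.66 to 1.68, edgeR adjusted p = 0.0389). The exact permutation test gave p = 0.00794, two-sided and again the smallest possible value.

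The Dcdc2a call depended on the libraries used, while its direction did not. It was kept without icKO 4 (edgeR adjusted p = 0.0307) and lost when any of the other 8 libraries was left out, with the highest adjusted p, 0.0931, without icKO 1. The icKO libraries with high Y-linked counts, icKO 1 and icKO 2, had the highest Dcdc2a levels. The fold was 2.64 among libraries with high Y-linked counts and 2.03 among those with low Y-linked counts, and the test of the difference between them gave 0.36 on the log2 scale (SE 0.35, edgeR adjusted p = 1.00). Neither class alone passed the test, with log2 fold changes of 1.41 (edgeR adjusted p = 0.196) and 1.04 (edgeR adjusted p = 0.408). Without icKO 1, control 2 and control 4, the log2 fold change was 0.86 (edgeR adjusted p = 0.248).

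Levels were compared between genes per kilobase of exon (RPKM), as means over the 9 libraries. Transport genes were at 3.25 to 34.99 RPKM, with a median of 7.54. Tested Cfap genes spanned 0.0513 to 37.7 RPKM with a median of 0.708, and 11 of the 23 reached 1 RPKM. The 12 tested Dnah genes lay between 0.0290 and 0.207 RPKM, and none of them reached 1 RPKM. Dynein heavy chains, the motors specific to motile axonemes, thus had the lowest median of the families, 0.121 RPKM, and every transport gene was above every Dnah gene.

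The order in the motile class began with Cfap36 at 37.7 RPKM, Cfap97 at 9.83, Cfap300 at 9.30, Cfap20 at 8.97 and Cfap206 at 8.46 RPKM. In the transport class it began with Ift20, an IFT-B subunit that is also found at the Golgi, at 34.99 RPKM. It was followed by the IFT-B subunits Ift52 at 14.8, Ift172 at 13.7, Ift22 at 10.6 and Ift46 at 10.5 RPKM. Cfap36 and Ift20 stood clear of the genes after them, whereas Cfap97, Cfap300 and Cfap20 lay close together, as did Ift22 and Ift46. With the longest transcript in place of all exons, Cfap36 and Ift20 stayed at the head of their classes and Ift122 moved to second place among transport genes with 18.9 RPKM, and the order below the head changed with the length used.

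Cfap206 changed its place with genotype. It was at 10.9 ± 1.14 RPKM in icKO and 5.36 ± 0.603 RPKM in control libraries (SD, n = 5 and 4). In icKO libraries it was above the means of Cfap97, 9.62 RPKM, and Cfap20, 9.22 RPKM, while in control libraries it was below them, at 10.1 and 8.66 RPKM. Dcdc2a was at 0.308 ± 0.0908 RPKM in icKO and 0.137 ± 0.0261 RPKM in control libraries (SD, n = 5 and 4), both in the range of the low Cfap genes.

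**Figure D3:**
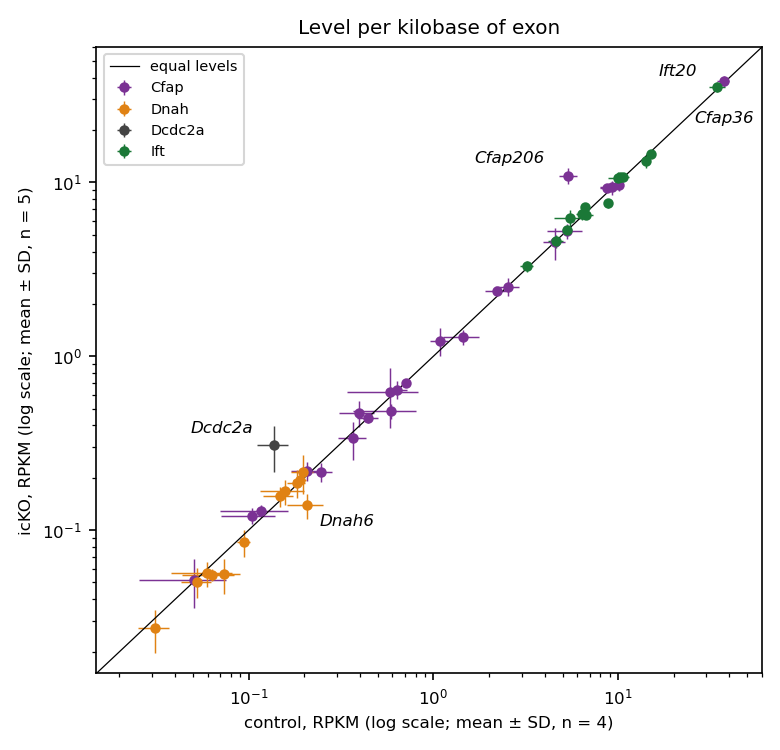
Mean level in RPKM of each tested cilia gene in icKO libraries (y axis, log scale) against control libraries (x axis, log scale), with bars of ± SD over 5 icKO and 4 control libraries, the line of equal levels and colours for the families. Cfap206 and Dcdc2a lie above the line, Dnah6 lies below it, and the Dnah genes gather at the low end.

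The 11 members that were not tested had 0 to 13 counts per library and 2 to 53 counts in all. They were Cfap45, Cfap53, Cfap73, Cfap77, Cfap97d1, Cfap97d2, Cfap161, Cfap221, Dnah3, Dnah11 and Dnah12, and the highest mean over libraries was 0.228 CPM. Cfap97d1 had 3, 1, 3, 1 and 1 counts in icKO 1 to 5 and 0 counts in each control library, all at or below the floor of 3 counts, so no fold is given. Cfap73 had 1, 0, 1, 0 and 0 counts in icKO 1 to 5 and 0 counts in each control library. At this depth no difference could be measured in these genes.

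Genes of the same structures under other names were examined in 9 lists with 152 distinct genes, of which 126 were tested. None of the 126 was called, by edgeR with adjustment over all genes tested. At an unadjusted p under 0.05, 3 had a higher and 5 a lower level, against 4.85% higher and 6.26% lower over all tested genes. DESeq2 called 1 gene, Adcy3, lower. Their median log2 fold change was 0.02, with 79 positive and 47 negative values. In 4 of the 126, libraries did not overlap between the groups, against 4.5% of all tested genes. These were Wdr35 and Ccdc39, higher in icKO libraries, and Dnaic2 and the motor gene Kifap3, lower in icKO libraries.

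For transport, 8 of 9 IFT subunits with other symbols were tested, with a median of 0.04. Wdr35, an IFT-A subunit, had 43.0 ± 1.40 CPM in icKO and 39.0 ± 0.473 CPM in control libraries (SD, n = 5 and 4), with no overlap and a log2 fold change of 0.14 (SE 0.05, edgeR adjusted p = 0.233). Ttc26, an IFT-B subunit, was at -0.22 (edgeR adjusted p = 0.399). Of the kinesin and dynein motors of these trains, 11 of 12 were tested, with a median of 0.03. Their smallest p belonged to Wdr34, a chain of the return dynein, with a log2 fold change of 0.18 (edgeR adjusted p = 0.407). The BBSome is the coat that carries membrane proteins in and out of cilia. Its list also held factors outside the coat, such as Arl6, Lztfl1, Mkks, Bbs10 and Bbs12. All 13 genes of this list were tested, with a median of 0.02 and 12 positive values that all missed the threshold. All 19 genes of the transition zone, the gate at the base of the cilium, were tested as well, with a median of 0.05. Tmem216 had their smallest p, with a log2 fold change of 0.28 (edgeR adjusted p = 0.459).

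Among 18 genes of signalling in primary cilia, with a median of -0.03, Adcy3 came nearest to a call. It encodes the adenylyl cyclase used as a marker of neuronal cilia and had 11.9, 13.3, 14.8, 11.0 and 13.9 CPM in icKO 1 to 5, against 19.5, 14.2, 17.7 and 18.1 CPM in control 1 to 4. Its groups overlapped through icKO 3 and control 2. The log2 fold change was -0.42 (SE 0.11, edgeR adjusted p = 0.110), and DESeq2, the fit with no count filter and the fit without control 2 each called 1 gene of this list lower. Gpr161, a receptor that restrains Hedgehog signalling in cilia, was at -0.21 (edgeR adjusted p = 0.367).

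Of 43 other motile-axoneme genes, 31 were tested, with a median of 0.03. Ccdc39, which sets the spacing of dynein arms along the doublets, had 16.9, 14.4, 13.1, 14.3 and 14.5 CPM in icKO 1 to 5, against 10.7, 12.6, 11.0 and 12.7 CPM in control 1 to 4. The groups did not overlap, and the log2 fold change of 0.32 did not pass (SE 0.09, edgeR adjusted p = 0.162). Ccdc65, a regulator of the nexin link, was at -0.47 (edgeR adjusted p = 0.231). Dnaic2, an intermediate chain of the outer dynein arm, was at -0.29 with no overlap between the groups (edgeR adjusted p = 0.361). The 10 tested dynein arm assembly factors of 14 had a median of -0.07, and Lrrc6 had their smallest p (log2 fold change -0.34, edgeR adjusted p = 0.630).

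Of 15 transcription factors and other regulators of ciliogenesis, 10 were tested, with a median of 0.04 and no call. Foxj1, the forkhead factor that drives motile cilia genes, had 14.8, 18.3, 19.5, 13.5 and 21.3 CPM in icKO 1 to 5, against 20.5, 20.4, 16.8 and 22.6 CPM in control 1 to 4. The groups overlapped widely (log2 fold change -0.20, SE 0.13, edgeR adjusted p = 0.656). E2f5 was at 0.20 (edgeR adjusted p = 0.581). In the doublecortin family, to which Dcdc2a belongs, 6 of 9 other genes were tested, with a median of 0.02 and no call. Dclk1, a doublecortin-like kinase, had their smallest p (log2 fold change -0.17, edgeR adjusted p = 0.569).

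**Figure D4:**
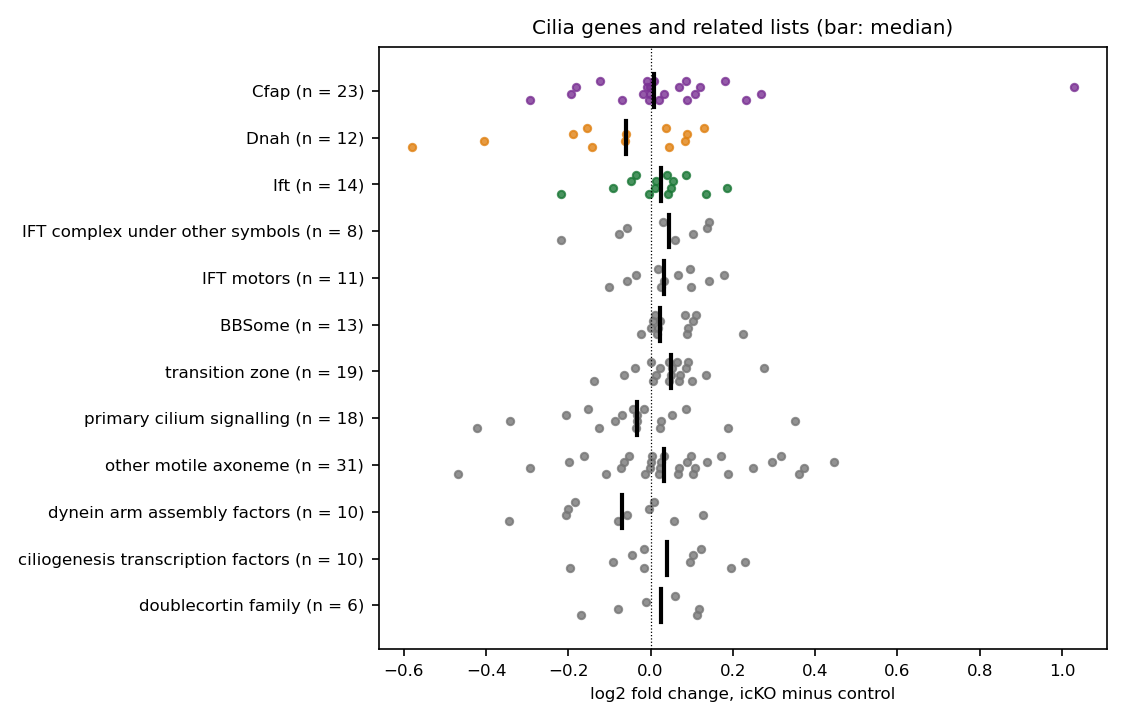
Log2 fold change, icKO minus control (x axis), of each tested gene in the 3 cilia families (coloured) and in the 9 related lists (grey), with each gene 1 point and a vertical bar at the median of the list. The medians lie between -0.07 and 0.05, and Cfap206 at 1.03 stands apart from its family.

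Markers of multiciliated ependymal cells were read because such cells carry motile cilia. The 8 markers summed to 39.2 to 44.9 CPM in icKO libraries and 36.0 to 52.7 CPM in control libraries, almost all from Foxj1 and Rarres2. Tmem212 was at 0 in every icKO library and in all control libraries but control 1, and Ccdc153 was at 0 in every icKO library and in all control libraries but control 4. Sntn, another marker of the list, had counts in icKO 4 and control 1 and was at 0 in the other libraries. Tmem212, Ccdc153 and Sntn did not reach more than 0.155 CPM. Dynlrb2, also of the list, was found in every library, with 4 to 16 counts in icKO and 5 to 9 counts in control libraries. Its highest values were 0.620 and 0.367 CPM, too low to be tested. Of the 8 markers 2 could be tested, and neither passed. Whether such cells were present was not tested. The sensory neuron markers summed to 8953 to 10985 CPM in icKO libraries and 10197 to 12136 CPM in control libraries, so sensory neuron transcripts were abundant in every library. The ranges overlapped, and 1 of the 9 sensory neuron markers passed the edgeR test, with a lower level in icKO libraries (2 by DESeq2). The 7 markers of fibroblasts and meninges summed to 764 to 1921 CPM in icKO libraries and 631 to 1322 CPM in control libraries, which overlapped; all 7 had positive log2 fold changes, with a median of 0.18, and none passed. The part of these markers in the Cfap206 and Dcdc2a results was not tested.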

How the data were processed

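Per the labels' protocols, messenger RNA of frozen ganglia was sequenced with an Illumina protocol. The deposited values are raw read counts per gene, which the authors made, per the submitters' processing notes, with featureCounts 1.5.0-p1, STAR 2.5.2a and bcl2fastq 2.20.0.422 on mm10. Whether counting used the strand and how reads with several positions were treated is not given in the sources used here. Identifiers were matched to GENCODE M21 on the same build, all 55536 of them. All count columns were used.

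From the counts, genes were kept with filterByExpr by group (minimum count 10, minimum total 15), which left 17258 genes, and scaled with TMM factors to CPM. Groups were compared with edgeR 4.0.16 (quasi-likelihood test, trended dispersion, R 4.3.3) over the whole table, with Benjamini-Hochberg adjustment over all genes tested and a threshold of 0.05. The SE is the log2 fold change divided by the root of the F statistic, with a 95% interval. Single genes past the threshold were also compared by exact permutation of log2 CPM (prior count 2). RPKM used the union of exons. Library totals were 19607740 to 29481589 counts, and floors of 3 counts cover counting error only. Replicate libraries differed by more than sampling noise (chi-square per degree of freedom 5.53 to 21.0), and each was counted once. The test code was tested on simulated data.

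Named genes were the members past the threshold, those with an unadjusted p under 0.05, Cfap206 and Dcdc2a, the 5 highest per kilobase in each class, the 2 with the largest fold changes each way per class among those of at least 1 CPM, and the related-list genes with the smallest p. Slc35a1 was added as a neighbour. Members and lists were chosen with earlier results of these data known. Alternatives were RLE factors, the scaling DESeq2 uses, no scaling beyond library size, robust dispersion, no filter, 1 CPM in 4 libraries, DESeq2 1.42.0, each library left out, the replicate number as a block, Y-linked class as covariate or subset, and, chosen after seeing the data, leaving out libraries with high spinal cord or muscle markers. The test of the difference between Y-linked classes was also added after seeing the data.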

Additional observations from a re-analysis of the deposited data

Results flagged for a closer look

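In 98 groups of 4 or 5 libraries, 7 held a library far from the others, and chance alone flags about 1 group in 20. None of the named Cfap, Dnah or Ift genes nor Dcdc2a was among them. Control 2 stood above the other control libraries in 3 related genes, with Dync2li1 at 21.8 CPM, Arl6 at 46.01 CPM and Bbip1 at 51.03 CPM, where the others had at most 19.39, 38.85 and 39.52 CPM. Control 4 was low in Ccdc65, at 2.009 CPM where the other control libraries had at least 3.04 CPM. It was high in Dnaic2, at 3.71 CPM where the others had at most 3.23 CPM, and in the spinal cord marker sum, at 86.92 CPM where the others had at most 23.5 CPM. E2f4 was at 22.51 CPM in control 1, where the others had at most 20.6 CPM. None of these genes passed the test between icKO and control libraries.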

How the results depend on the processing

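Over 20 alternatives for each of the 17 named members, 316 values kept their direction and their side of the threshold, 13 lost a call, 1 gained a call and 10 changed sign. Cfap206 was called in 19 of 20 and Dcdc2a in 8 of 20. Without a count filter, 172 genes were called higher and 221 lower; DESeq2 called 197 higher and 234 lower, with 1 member lower. Within libraries of high Y-linked counts, 0 genes were called higher and 3 lower, with 0 members higher, and within those of low Y-linked counts 11 were higher and 9 lower, with 1 member higher. Without the libraries with high spinal cord or muscle markers, chosen after seeing the data, 23 were higher and 12 lower, with 1 member higher. With each library left out in turn, 45 to 85 genes were higher and 33 to 90 lower, and 1 to 2 members were higher. With the replicate number as a block and icKO 5 left out, 28 genes were higher and 20 lower, 1 member, Cfap206, was higher, and Dcdc2a was not called (edgeR adjusted p = 0.113). Whether same-numbered libraries shared more than a number is not known here. Their deviations correlated at 0.10, -0.18, -0.04 and 0.17, and 0 icKO libraries correlated best with their own number. These few values cannot settle whether a preparation was shared. Small log2 fold changes turned round in Cfap300 (-0.014 without icKO 2, -0.0063 without icKO 4, -0.034 without control 3, -0.029 without the marker-rich libraries, and 0.11 at the other end, without control 1). They also did so in Ift22 (-0.013 without icKO 2, -0.015 without control 3, -0.016 without control 4, -0.030 with low Y-linked counts, against 0.056 without control 2 and at most 0.073 over the 20 alternatives). The others were Cfap36 (-0.0047 without icKO 4, against 0.076 without control 2) and Ift52 (0.016 with low Y-linked counts). The causes were not tested, and each subset also held fewer libraries. The filter left 11 members untested, and only 5 of the 12 tested Dnah genes had intervals within 1.41-fold.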
